A study of Mus musculus with 12 samples.

Results

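The comparison described here sets undifferentiated 3T3-L1 cells that overexpress LIGHT against undifferentiated control 3T3-L1 cells, as RNA levels of all genes in 3 libraries of each line. These 6 of the 12 libraries of the study were chosen by their labels, and the other 6, taken after culture for beige fat differentiation, do not enter the test. 3T3-L1 is a line of mouse preadipocytes, fibroblast-like in culture, which turn into fat cells under the right hormones. The control line is named NC in the labels, and the other line carries overexpression of LIGHT (tnfsf14). Both lines were kept in the same complete medium (DMEM/high glucose with fetal bovine serum and penicillin-streptomycin), and no differentiation agent is given for them at this stage. There was 1 line of each kind, and the labels do not say how LIGHT was introduced, so a difference between clones or lines and an effect of LIGHT cannot be told apart in any result below. Nothing in the labels tells whether each line's 3 libraries came from separate cultures, and p-values then measure the spread between these samples, which may be technical.

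LIGHT is a cytokine of the tumour necrosis factor family, encoded by Tnfsf14, that sits on the cell surface or is shed from it. It binds the lymphotoxin beta receptor (Ltbr), which is found on stromal cells, and the herpesvirus entry mediator (Tnfrsf14). Signalling from the lymphotoxin beta receptor runs through TRAF adaptors to the classical NF-κB route (Nfkb1 with Rela) and, once the kinase Map3k14 is stabilised, to the alternative route in which the Nfkb2 precursor is cut and its product pairs with Relb.

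Depth was even across the 6 libraries, from 16555043 to 18655347 expected counts, with 14834 to 15017 genes listed in each. Levels are counts per 1e6 (CPM), and the floor of 3 counts corresponds to 0.161 to 0.181 CPM. Of the 12378 genes tested, 5601 differed between the lines (45.2%), 2868 of them higher in LIGHT (23.2%) and 2733 lower (22.1%), by edgeR's quasi-likelihood test at a Benjamini-Hochberg adjusted p under 0.05. In CPM, the libraries of the 2 lines did not overlap for 6645 of the tested genes (53.7%). A lack of overlap in a gene named below is therefore common. Most of the differences were small. The median absolute log2 fold change of the genes that passed was 0.38, and 273 genes (2.21%) were higher with at least a doubling while 311 (2.51%) were lower with at least a halving. The first principal component held 62.5% of the variance and separated the lines, at -29.1 to -27.3 in control and 26.2 to 30 in LIGHT. The second held 11.8% and set LIGHT 3, at -24, apart from LIGHT 1 and LIGHT 2, at 10.4 and 12.3, so counts are also given without it. Leaving out LIGHT 3, 5428 genes passed.

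A fit that shared its spread over all 12 libraries of the study called 3446 genes, and counts of a gene list that it moved by more than 1.5 times stand beside the main count. In that fit Tnfsf14 itself had an edgeR adjusted p of 0.0687. Of the 6 differentiated libraries that it adds, 2 went against their labels in Tnfsf14. Without those 2 libraries, in a fit chosen after seeing the data, 5836 genes passed. A set of 251 genes called in the main comparison was followed through the fits. It was picked by the naming rule, with some genes added after their values were seen. Each of the 251 passed in the fit without those 2 libraries too. Of the 5601 calls, none that also passed in another of the fits run changed sign there.

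Cells of both lines carried genes that mark fibroblasts and preadipocytes, though not all of them. Of 18 such genes, 16 were listed in any of the 6 libraries and 15 could be tested. Cd34 was low, at 1.26 ± 0.32 CPM in control and 1.06 ± 0.31 CPM in LIGHT (SD, n = 3 each), and did not pass. Vim, the intermediate filament of mesenchymal cells, lay at 5560 ± 227 against 5550 ± 220 CPM (mean ± SD of control and of LIGHT, n = 3 each). Pdgfrb, the platelet-derived growth factor receptor of stromal cells, lay at 187 ± 21.2 against 189 ± 16.6 CPM, and neither passed the test. Of the 15 tested markers of this kind 5 were higher in LIGHT (33.3%, against 23.2% of all tested genes) and 3 lower (20%, near the 22.1% of all tested genes). The higher were Pdgfra (0.81 on the log2 scale), Col1a1 (0.70), Dlk1 (0.62), Twist1 (0.30) and Prrx1 (0.18). The lower were Cd44 (-0.74), Thy1 (-0.20) and Twist2 (-0.18). With all 12 libraries in the fit 2 were higher, and Twist2 missed the threshold without LIGHT 2 (edgeR adjusted p = 0.0563). Summed over the leukocyte list, levels were 20.1 to 20.9 CPM in control and 13.7 to 15 CPM in LIGHT. Most of that sum was Cd14, at 15.6 ± 0.435 against 11.8 ± 0.733 CPM. Of only 4 leukocyte genes tested, 3 passed (Cd14, Lyz2 and Cd68), all lower in LIGHT (75%, against 22.1% of all tested genes). Ptprc, which marks all leukocytes, had 3 counts over the control libraries and 25 over the LIGHT libraries, a ratio of 7.91 (exact 95% counting interval 2.41 to 41). Itgam had at most 1 count in a library. The endothelial and epithelial list summed to 3.1 to 3.52 CPM in control and 1.85 to 2.64 CPM in LIGHT. The muscle, bone and cartilage list summed to 101 to 111 CPM and 120 to 129 CPM, of which Sox9, a cartilage regulator, made 60.3 ± 2.58 against 83.9 ± 2.81 CPM. In bulk RNA, fewer cells of a type and less RNA per cell cannot be told apart. The part of these genes in the results below was not tested.

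**Figure D1:**
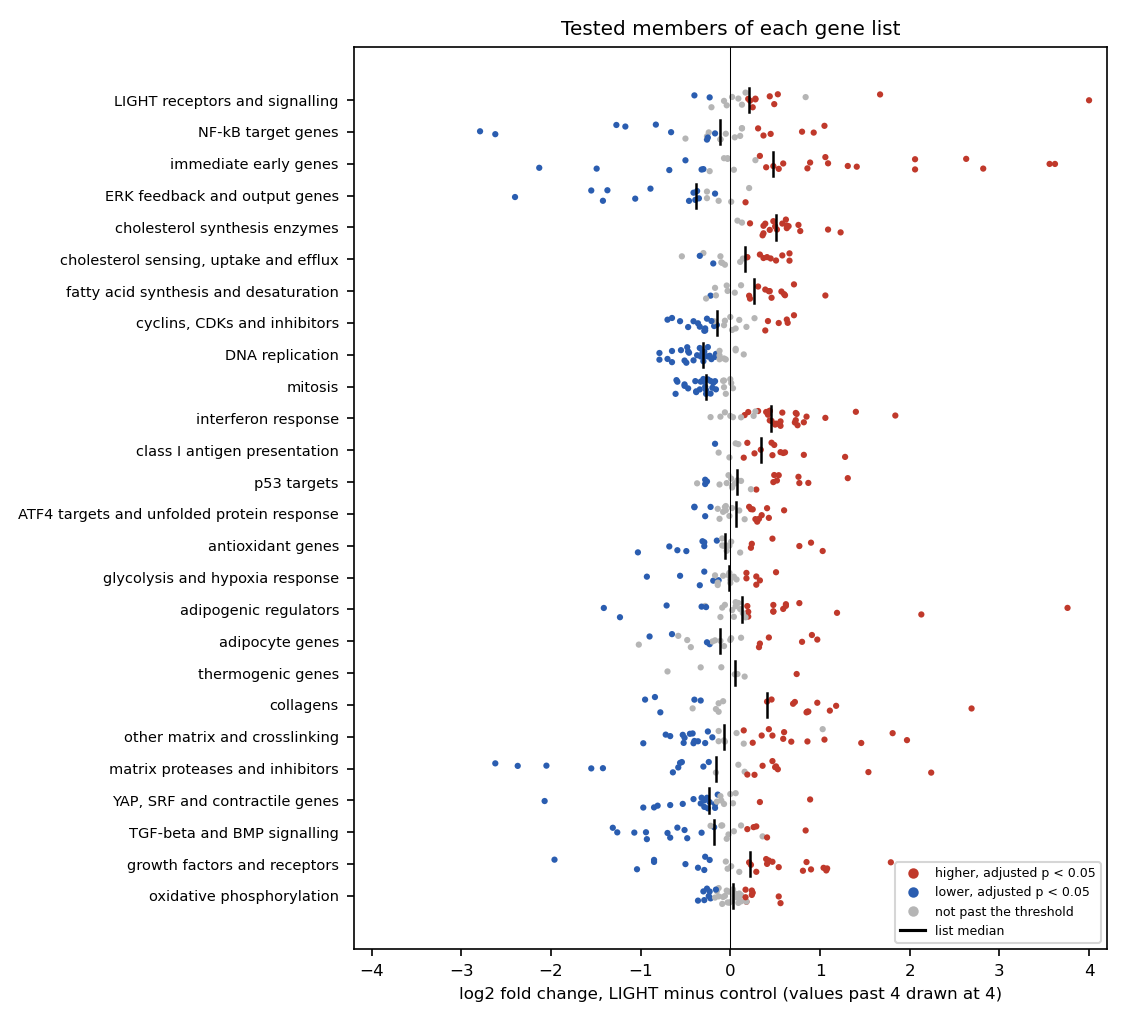
Log2 fold change (LIGHT minus control, x axis) of every tested member of 26 gene lists. Red points passed as higher in LIGHT, blue as lower, grey did not pass, and the black bar is the median of the list, which is 0.51 for cholesterol synthesis enzymes, -0.38 for ERK output genes and 0.00 for all tested genes; Tnfsf14, at 6.72, is drawn at 4.

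The overexpressed gene followed the labels in all 6 libraries. Tnfsf14 (gene ID 50930) had 0, 1 and 0 counts in control 1, 2 and 3, and 38, 53 and 58 counts in LIGHT 1, 2 and 3. The groups did not overlap. The ratio of the summed counts was 142 (exact 95% counting interval 25 to 5626). These values check the labels and are no finding, since LIGHT was the gene introduced. Per length, the transcript stood at 1.62 ± 0.277 FPKM in LIGHT (SD, n = 3). FPKM are fragments scaled to transcript length and library size.

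Among genes of the LIGHT receptor pathway, differences in most receptors and adaptors were small. Of the 20 tested members 10 were higher (50%, against 23.2% of all tested genes), a count that includes the introduced Tnfsf14 itself, and 2 were lower (10%, against 22.1%). The median log2 fold change was 0.21. Of the receptors, Ltbr was by far the more abundant per length, at 60.5 ± 1.24 FPKM in control and 70.1 ± 2.9 FPKM in LIGHT. Its count-based level was 116, 114 and 120 CPM in the control libraries and 136, 136 and 145 CPM in the LIGHT libraries, a log2 fold change of 0.25 ± 0.05 (SE; edgeR adjusted p = 0.000871). Tnfrsf14 lay at 0.4 ± 0.417 and 1.16 ± 0.32 FPKM. It passed with all 6 libraries (log2 fold change 1.67 ± 0.56 (SE; edgeR adjusted p = 0.0222)) but not without control 1, control 2 or LIGHT 2 (edgeR adjusted p 0.0997, 0.0927 and 0.103). Control 3 was the highest control library, and without it the log2 fold change was 2.82.

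Subunits of the alternative NF-κB route were higher in LIGHT. Nfkb2, its precursor subunit, lay at 136, 163 and 151 CPM in the control libraries and 218, 206 and 225 CPM in the LIGHT libraries, a log2 fold change of 0.53 ± 0.06 (SE; edgeR adjusted p = 4.28e-06). Relb, its partner, lay at 25.5, 20.7 and 26.1 CPM in the control libraries and 31.5, 33.2 and 33.6 CPM in the LIGHT libraries (0.44 ± 0.09 (SE; edgeR adjusted p = 0.000802) on the log2 scale). The groups did not overlap for either gene, as for 53.7% of all tested genes. Nfkb1, the precursor of the classical p50 subunit, was also higher (0.28), while Rela, the transactivating subunit of the classical route, was lower at 111, 114 and 123 CPM in the control libraries and 83.5, 91.7 and 87.7 CPM in the LIGHT libraries, a log2 fold change of -0.40 ± 0.06 (SE; edgeR adjusted p = 2.92e-05). The other member that was lower, the kinase Chuk (-0.23), passed neither without control 2 nor without LIGHT 2. Birc3, a ubiquitin ligase of the TRAF complex that is also a target of the pathway, was higher by 0.49. Traf2, Traf5 and Map3k14 differed by 0.20 to 0.28. Traf2 missed the threshold without control 2, and Traf5 without control 1, control 3, LIGHT 1 or LIGHT 2. Of the fits that left out a library, Map3k14 passed only in that without control 3. Traf5 and Map3k14 also missed the threshold with library totals, in DESeq2 and with no low-count filter. With all 12 libraries in the fit the count was 1 higher and 1 lower, and Ltbr, Nfkb2, Relb and Birc3 missed the threshold there (edgeR adjusted p 0.159 to 0.231).

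NF-κB target genes did not move in a common direction. Of 25 tested, 6 were higher in LIGHT (24%, against 23.2% of all tested genes) and 9 lower (36%, against 22.1%; 3 and 4 with all 12 libraries in the fit), with a median log2 fold change of -0.11. Those higher were the inhibitors and modulators Bcl3 (0.93 ± 0.11 (SE; edgeR adjusted p = 2.64e-06)), Nfkbie (0.80 ± 0.12 (SE; edgeR adjusted p = 4.92e-05)) and Tnip1 (0.37), the neutrophil chemokines Cxcl1 (1.05) and Cxcl5 (0.45), and the adhesion receptor Vcam1 (0.31), which did not pass with all 12 libraries. The monocyte-directed cytokines were lower. Ccl2, a chemokine that draws monocytes, lay at 158, 152 and 157 CPM in the control libraries and 72.3, 62.4 and 73.4 CPM in the LIGHT libraries, a log2 fold change of -1.17 ± 0.06 (SE; edgeR adjusted p = 3.42e-10). Csf1, the growth factor of macrophages, lay at 420, 384 and 404 CPM in the control libraries and 224, 216 and 242 CPM in the LIGHT libraries (-0.83 ± 0.06 (SE; edgeR adjusted p = 9.58e-09)). In both genes every LIGHT library was below every control library. Ccl7 (-0.66) and the acute phase gene Saa3 (-1.27) were lower too, Ccl7 not with all 12 libraries (edgeR adjusted p = 0.0627). Larger falls in this list were those of Lcn2 and Mmp3. Lcn2 lay at 17.9, 20.6 and 17.5 CPM in the control libraries and 2.94, 3.31 and 1.85 CPM in the LIGHT libraries (-2.79). Mmp3 lay at 47.9, 41.2 and 40.4 CPM in the control libraries and 6.69, 6.4 and 8.02 CPM in the LIGHT libraries (-2.62). The feedback inhibitors Nfkbia (0.11; edgeR adjusted p = 0.202) and Tnfaip3 (-0.11; edgeR adjusted p = 0.505) and the cytokine Il6 (-0.50; edgeR adjusted p = 0.261) did not pass, and Icam1 was too low to test, with at most 0.112 CPM in a library.

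Immediate early genes, the transcription factors and regulators that serum and growth factors switch on within minutes, held several of the largest differences between the lines. Of 29 tested, 17 were higher in LIGHT (58.6%, against 23.2% of all tested genes) and 6 lower (20.7%, near the 22.1% of all tested genes). The median log2 fold change was 0.48. Without LIGHT 3 the counts were the same. Egr1 (gene ID 13653), a zinc finger factor of the early growth response, lay at 34.4, 31.6 and 32.6 CPM in the control libraries and 221, 243 and 233 CPM in the LIGHT libraries, a log2 fold change of 2.82 ± 0.06 (SE; edgeR adjusted p = 7.6e-15) and a 7.07-fold ratio of the means. Its 3 LIGHT libraries were close together and far above all control libraries. Ier2 followed with 59.4, 64.2 and 62.3 CPM in the control libraries and 255, 267 and 253 CPM in the LIGHT libraries (2.06 ± 0.05 (SE; edgeR adjusted p = 7.94e-14)). Zfp36, which encodes tristetraprolin, a protein that destabilises AU-rich messenger RNAs, lay at 14.8, 13.2 and 15.4 CPM in the control libraries and 57.3, 67.8 and 56 CPM in the LIGHT libraries (2.06 ± 0.09 (SE; edgeR adjusted p = 3.63e-11)). Egr2 (2.63), Btg2 (1.31), Nr4a1 (1.09) and Egr3 (1.06) were higher without overlap. Egr2 rested on low levels, and control 1 (3.7 CPM) was above control 2 and 3 (1.1 and 1.49 CPM); without control 1 its log2 fold change was 3.31.

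Within the AP-1 family the 2 lines differed in which Fos protein gene was most abundant. AP-1 is a dimer of a Jun protein with a Fos protein. Fos (gene ID 14281) lay at 2.21, 2.48 and 2.32 CPM in the control libraries and 30, 33.1 and 20 CPM in the LIGHT libraries, a log2 fold change of 3.56 ± 0.19 (SE; edgeR adjusted p = 2.5e-10). Fosb lay at 1.55, 1.62 and 1.43 CPM in the control libraries and 23.6, 23.5 and 9.64 CPM in the LIGHT libraries (3.62 ± 0.30 (SE; edgeR adjusted p = 7.9e-08)). LIGHT 3 was the lowest of the LIGHT libraries for both, yet above every control library, and without it the log2 fold changes were 3.75 and 3.93. Fosl1, which encodes FRA-1, went the other way, at 57.3, 60.7 and 61.1 CPM in the control libraries and 12.9, 13.2 and 14.7 CPM in the LIGHT libraries, a log2 fold change of -2.13 ± 0.08 (SE; edgeR adjusted p = 3.86e-12). Fosl2 did not pass (-0.03; edgeR adjusted p = 0.737). Per length, in control cells Fosl1 (39.1 ± 1.34 FPKM) stood above Fosl2 (16 ± 0.618), Fos (1.21 ± 0.0709) and Fosb (0.373 ± 0.0379). In LIGHT cells Fosl2 (15.4 ± 0.424 FPKM) and Fos (14 ± 3.4) did not differ beyond their spread, and Fosl1 (8.64 ± 0.682) and Fosb (4.11 ± 1.65) stood below them. On the Jun side, Junb rose most, from 113 ± 9.65 against 301 ± 4.73 CPM (1.41 ± 0.06 (SE; edgeR adjusted p = 2.46e-11)), followed by Jund (0.86) and Jun (0.54), so that Junb stood at 176 ± 4.11 FPKM, Jund at 119 ± 3.77 and Jun at 58.8 ± 3.26 in LIGHT. The lower immediate early genes beside Fosl1 were Maff (-1.49), Csrnp1 (-0.68), Myc (-0.50), Klf10 (-0.30) and Ier3 (-0.32), the last of which missed the threshold without control 2, control 3, LIGHT 1 or LIGHT 3.

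**Figure D2:**
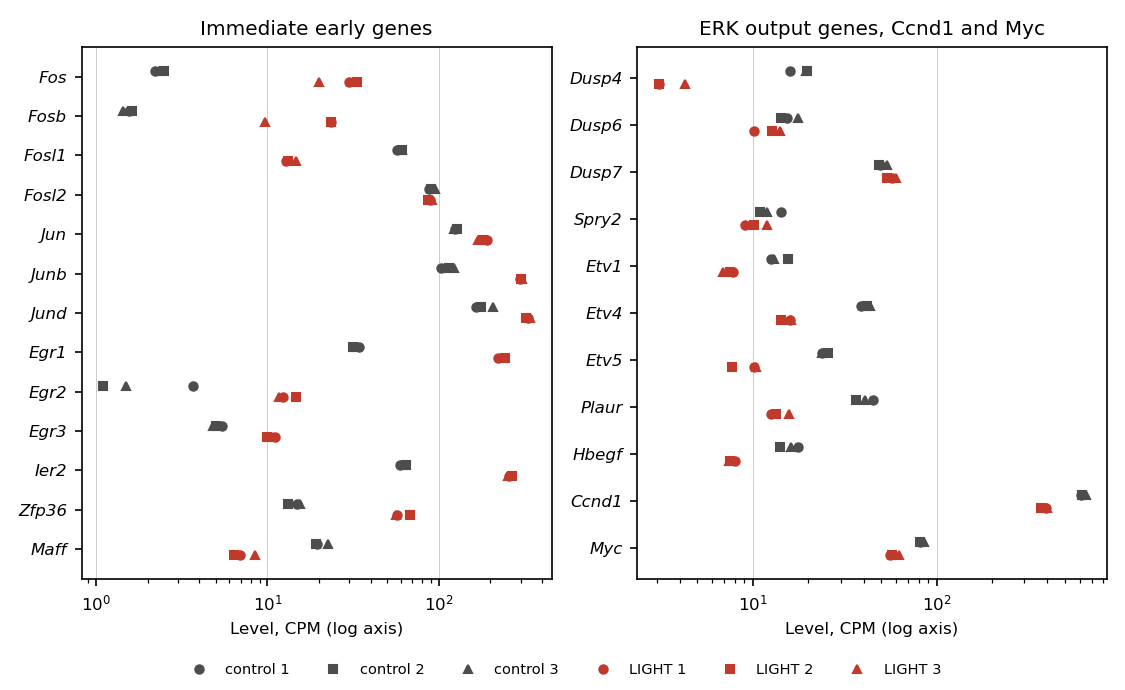
Levels in CPM (log axis) of immediate early genes (left) and of ERK output genes with Ccnd1 and Myc (right) in each library, control in grey and LIGHT in red, with a symbol shape per replicate. Fos and Egr1 lie 11.8-fold and 7.07-fold higher in LIGHT by the ratio of means, while Fosl1, Dusp4 and Etv4 lie lower in every LIGHT library.

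Genes that follow sustained ERK signalling were lower in LIGHT while the immediate early genes were higher. ERK is the mitogen-activated kinase that growth factor receptors activate, and its sustained output includes phosphatases that feed back on it. Of the 18 tested, 12 were lower (66.7%, against 22.1% of all tested genes) and 1 higher, with a median of -0.38. Without LIGHT 3, 13 were lower. Dusp4, a phosphatase of the kinase, lay at 15.9, 19.8 and 19.4 CPM in the control libraries and 3.07, 3.09 and 4.26 CPM in the LIGHT libraries, a log2 fold change of -2.40 ± 0.15 (SE; edgeR adjusted p = 2.21e-09). The ETS factors of the PEA3 group were lower together: Etv4 lay at 38.9, 42 and 43.5 CPM in the control libraries and 16, 14.3 and 16.1 CPM in the LIGHT libraries (-1.42 ± 0.08 (SE; edgeR adjusted p = 1.31e-09)), and Etv5 (-1.37) and Etv1 (-0.89) were lower without overlap. Plaur, the urokinase receptor, was lower by 1.55 and Hbegf, a ligand of the epidermal growth factor receptor, by 1.06 on the log2 scale. Dusp6 was lower by 0.35 but not without control 3, LIGHT 1 or LIGHT 2, nor with all 12 libraries (edgeR adjusted p 0.0502 to 0.159). The single member called higher, Dusp7 (0.17; edgeR adjusted p = 0.048), missed the threshold in most of the alternatives. The Sprouty genes Spry1, Spry2 and Spry4 did not pass, although Spry2 did without LIGHT 3 (edgeR adjusted p = 0.0415).

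The enzymes of cholesterol synthesis were higher in LIGHT along nearly the whole pathway. This pathway builds sterols from acetyl-CoA through mevalonate and isoprenoids, and its genes are switched on by SREBP-2 (Srebf2) when membrane cholesterol falls. All 20 enzymes had a log2 fold change above 0 and 18 passed (90%, against 23.2% of all tested genes), with a median of 0.51; 18 passed in each fit that left out a library and 15 with all 12 libraries. Mvd (gene ID 192156), which decarboxylates mevalonate diphosphate, lay at 50.6, 49.5 and 53.7 CPM in the control libraries and 111, 108 and 109 CPM in the LIGHT libraries, a log2 fold change of 1.09 ± 0.06 (SE; edgeR adjusted p = 2.04e-10). Its 3 LIGHT libraries were close together and all above the control libraries. In the mevalonate part, Hmgcs1 was higher by 0.62, Mvk by 0.65 and Idi1 by 0.63. Fdps, which makes farnesyl diphosphate, lay at 175, 186 and 190 CPM in the control libraries and 328, 306 and 312 CPM in the LIGHT libraries (0.78 ± 0.05 (SE; edgeR adjusted p = 7.71e-09)). In the sterol part, Tm7sf2, a sterol reductase of low level, lay at 5.49, 4.5 and 6.37 CPM in the control libraries and 10.7, 14.6 and 13.1 CPM in the LIGHT libraries (1.23 ± 0.15 (SE; edgeR adjusted p = 5.97e-06)), Msmo1 was higher by 0.76 and Nsdhl by 0.63. Hsd17b7, which works on the sterol ring, did not pass (0.13; edgeR adjusted p = 0.32), and its groups overlapped.

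**Figure D3:**
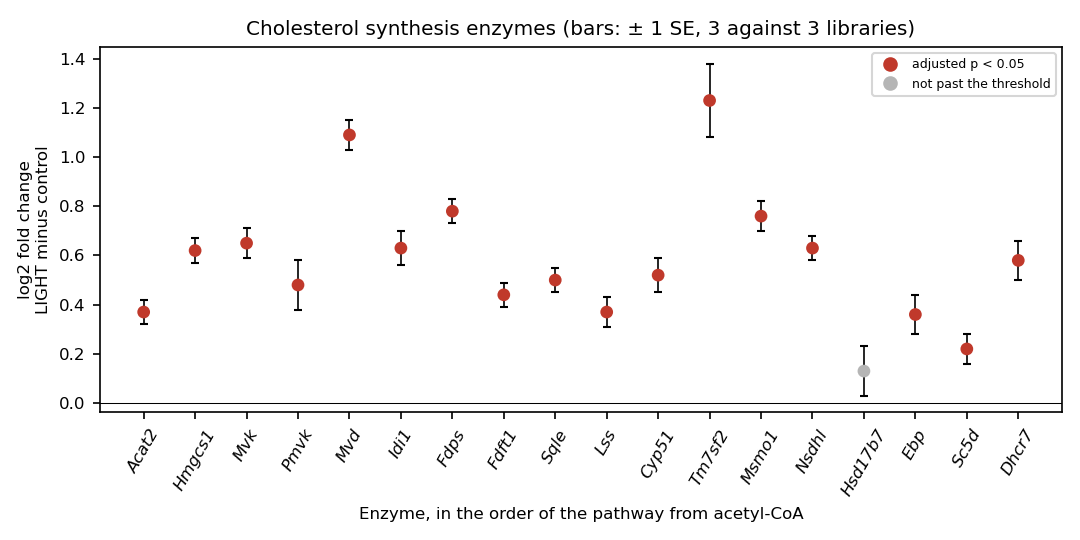
Log2 fold change, LIGHT minus control, of 18 cholesterol synthesis enzymes in pathway order from left to right (points, with bars of 1 SE from 3 against 3 libraries). Every point shown lies above 0, from 0.13 for Hsd17b7, the grey point that did not pass the test, to 1.23 for Tm7sf2.

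Since these genes differed together, the bases upstream of their starts are shown, from RefSeq (GRCm38.p6). The letters searched, on both strands, were CACNCCAC, a short form of a sterol element, and CCAAT, the box bound by NF-Y. Over the 250 bases upstream of the start, 13 of the 15 enzymes with a promoter window held CCAAT (86.7%, against 37.7% of the 9568 tested genes with a window and 34.5% of all 27025). Of these 13 enzymes 12 were higher in LIGHT, and of the 2 without a match 2 were. CACNCCAC was in 2 of 15 (13.3%, against 5.04% of tested genes). Below are the 200 bases before the start of 3 enzymes with at least 2 CCAAT matches and of Hmgcs1, which also held the sterol letters, with the matches in capitals. A match is a description and not a shown site, and matches of different motifs were counted separately.
Mvd (GRCm38.p6, chr8:122443423-122443622, minus strand): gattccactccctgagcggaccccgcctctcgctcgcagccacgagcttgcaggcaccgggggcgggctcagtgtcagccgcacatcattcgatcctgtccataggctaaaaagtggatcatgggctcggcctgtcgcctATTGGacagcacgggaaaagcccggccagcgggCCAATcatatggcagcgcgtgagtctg
Mvk (GRCm38.p6, chr5:114444069-114444268, plus strand): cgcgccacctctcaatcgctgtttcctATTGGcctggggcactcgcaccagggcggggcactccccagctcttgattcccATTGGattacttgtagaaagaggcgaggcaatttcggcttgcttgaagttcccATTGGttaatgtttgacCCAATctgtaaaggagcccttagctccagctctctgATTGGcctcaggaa
Nsdhl (GRCm38.p6, chrX:72918321-72918520, plus strand): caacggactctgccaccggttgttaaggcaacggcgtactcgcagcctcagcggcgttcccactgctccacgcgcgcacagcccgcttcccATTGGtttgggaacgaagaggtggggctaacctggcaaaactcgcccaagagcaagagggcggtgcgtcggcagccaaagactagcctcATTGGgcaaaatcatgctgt
Hmgcs1 (GRCm38.p6, chr13:119690151-119690350, plus strand): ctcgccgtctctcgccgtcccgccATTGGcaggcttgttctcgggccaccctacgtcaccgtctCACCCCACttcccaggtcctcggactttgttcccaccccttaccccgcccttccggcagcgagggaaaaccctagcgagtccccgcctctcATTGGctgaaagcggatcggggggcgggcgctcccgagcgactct

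Among the genes that sense and move cholesterol, 9 of 20 were higher (45%, against 23.2% of all tested genes) and 2 lower (10%, against 22.1%; median 0.17). Srebf2 was higher by 0.58, and its retention partner Insig1, itself a target of the pathway, lay at 53.4, 48 and 44.9 CPM in the control libraries and 73.5, 79 and 78.3 CPM in the LIGHT libraries (0.66 ± 0.07 (SE; edgeR adjusted p = 9.66e-07)). Stard4, a sterol carrier, was higher by 0.66, Vldlr by 0.51, Abca1, the cholesterol exporter, by 0.45 and Mylip, which degrades lipoprotein receptors, by 0.41. Lower were Soat1, which esterifies cholesterol (-0.34), and Srebf1 (-0.19), the latter not without control 1, LIGHT 1 or LIGHT 2. In fatty acid synthesis, 12 of 20 were higher (60%, against 23.2%) and 1 lower (median 0.26). The desaturases Scd2 (824 ± 76.2 against 1244 ± 25.4 CPM; 0.60 ± 0.06 (SE; edgeR adjusted p = 1.28e-06)), Scd1 (0.46), Fads2 (0.71) and Fads1 (0.44) were all higher, as was Acss2, which makes acetyl-CoA from acetate (1.06), while Fasn, the fatty acid synthase, was not (0.05; edgeR adjusted p = 0.512). Me1, which supplies NADPH, was lower by 0.22. Scd1 missed the threshold with all 12 libraries (edgeR adjusted p = 0.166).

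Interferon-stimulated genes were higher in LIGHT, by modest amounts. Of 34 tested, 26 were higher (76.5%, against 23.2%) and 0 lower, with a median of 0.45; 25 were higher without LIGHT 3 and 14 with all 12 libraries in the fit. Ifi27l2a differed most, at 59.9, 62.3 and 60.1 CPM in the control libraries and 223, 225 and 202 CPM in the LIGHT libraries, a log2 fold change of 1.84 ± 0.06 (SE; edgeR adjusted p = 5.08e-13). Mx1, an antiviral GTPase, lay at 11.3, 14.3 and 9.71 CPM in the control libraries and 27.9, 35.8 and 29.9 CPM in the LIGHT libraries (1.40 ± 0.13 (SE; edgeR adjusted p = 2.77e-07)). Isg15, a ubiquitin-like modifier, lay at 72.7, 116 and 97.3 CPM in the control libraries and 154, 165 and 156 CPM in the LIGHT libraries (0.73 ± 0.11 (SE; edgeR adjusted p = 3.56e-05)). In these genes control 2 was the highest control library, yet below every LIGHT library. Control 2 was likewise the highest control for Ifi44, Oasl2, Irf7 and Oas1a, which were higher in LIGHT by 1.06, 0.85, 0.82 and 0.73. The signal carrier Irf9 (0.46) differed less, and its partner Stat2 (0.16) missed the threshold without control 1 or control 3 and without any 1 of the LIGHT libraries (edgeR adjusted p 0.0529 to 0.139). Ifnb1, the interferon beta gene itself, had at most 1 count in a library. Oasl2 and Parp14 missed the threshold with all 12 libraries (edgeR adjusted p = 0.11 and 0.105).

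The core of the interferon-stimulated element (GAAA repeated after a gap of 2 bases) was found on either strand in the 250 bases upstream of 12 of the 25 list members with a window (48%, against 2.73% of tested genes). Of these 12 members 8 were higher in LIGHT, and of the 13 members without a match 9 were. The 200 bases before the start are shown for Isg15, where 3 overlapping matches form a single run, and for Oas1a, where 2 do (RefSeq, GRCm38.p6, matches in capitals).
Isg15 (GRCm38.p6, chr4:156200819-156201018, minus strand): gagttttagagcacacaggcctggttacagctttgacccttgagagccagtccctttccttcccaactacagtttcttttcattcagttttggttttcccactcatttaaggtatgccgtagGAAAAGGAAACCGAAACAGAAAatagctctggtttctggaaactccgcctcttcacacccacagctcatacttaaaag
Oas1a (GRCm38.p6, chr5:120907526-120907725, minus strand): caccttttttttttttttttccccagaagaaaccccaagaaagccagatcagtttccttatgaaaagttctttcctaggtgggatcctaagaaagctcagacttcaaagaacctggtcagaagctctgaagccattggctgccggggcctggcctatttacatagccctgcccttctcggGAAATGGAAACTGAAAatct

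In the class I presentation pathway, which loads peptides on MHC class I for display to T cells, 12 of 17 were higher (70.6%, against 23.2% of all tested genes) and 1 lower (median 0.34; 6 higher and 0 lower with all 12 libraries). The immunoproteasome subunits led, with Psmb9 at 2.8, 3.12 and 3.4 CPM in the control libraries and 6.69, 7.81 and 8.13 CPM in the LIGHT libraries (1.28 ± 0.16 (SE; edgeR adjusted p = 7.57e-06)), Psmb8 (0.82) and Psmb10 (0.59). The peptide transporter Tap1 was higher by 0.56 and H2-K1 by 0.34. B2m, the shared light chain, did not pass (0.09; edgeR adjusted p = 0.19), and H2-D1 was lower by 0.17, though not without LIGHT 2. Reads of the closely related H2 genes may be shared between them, and Psmb10 and H2-K1 missed the threshold with all 12 libraries.

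Genes of DNA replication and mitosis were lower in LIGHT. Of 34 replication genes 26 were lower (76.5%, against 22.1% of all tested genes) and 0 higher, with a median of -0.30. Of 30 mitosis genes 23 were lower (76.7%) and 0 higher, with a median of -0.27. With all 12 libraries in the fit 17 and 14 were lower. Rrm2, the ribonucleotide reductase subunit made in S phase, lay at 149, 162 and 167 CPM in the control libraries and 90.2, 93.8 and 92.2 CPM in the LIGHT libraries, a log2 fold change of -0.79 ± 0.06 (SE; edgeR adjusted p = 1.15e-08). Tk1 (-0.70), Fen1 (-0.65), Mcm3 (-0.55) and Orc1 (-0.79) were lower without overlap. Of the mitotic genes Birc5 (-0.61), Anln (-0.60) and Nuf2 (-0.59) differed most, and Mki67, the common proliferation marker, did not pass (-0.05; edgeR adjusted p = 0.574).

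Of 29 genes for cyclins, their kinases and regulators 14 were lower (48.3%, against 22.1% of all tested genes) and 6 higher (20.7%, against 23.2%). Ccnd1, the cyclin of G1 that growth factor signals raise, lay at 612, 621 and 646 CPM in the control libraries and 391, 369 and 400 CPM in the LIGHT libraries, a log2 fold change of -0.70 ± 0.05 (SE; edgeR adjusted p = 2.91e-08). Cdk1 was lower by 0.56 and Ccne1 by 0.34. The 6 called higher encode brakes on the cycle: Cdkn1b, which encodes p27, at 69.2, 65.5 and 64.9 CPM in the control libraries and 111, 109 and 107 CPM in the LIGHT libraries (0.71 ± 0.05 (SE; edgeR adjusted p = 2.88e-08)), Cdkn2a (0.64), Cdkn2c (0.63), Cdkn1a (0.54), Cdkn2b (0.39) and the pocket protein gene Rbl2 (0.42). Not every brake was higher: Cdkn2d did not pass (0.18; edgeR adjusted p = 0.0578), and the pocket protein gene Rbl1 was lower (-0.21), though its call was lost without control 2, control 3, LIGHT 1 or LIGHT 2. Cdkn2b missed the threshold with all 12 libraries (edgeR adjusted p = 0.0993).

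Stress pathways were split. Of 23 p53 targets 9 were higher (39.1%, against 23.2% of all tested genes) and 3 lower (13%, against 22.1%; median 0.08). Mdm2, the p53 ligase and its target, was among the most abundant genes, at 4024 ± 74.3 against 4067 ± 81.5 CPM, and did not pass (edgeR adjusted p = 0.841). Trp53inp1 (0.87), Sesn1 (0.77) and Bbc3 (0.76) were higher, and Trp53 itself (-0.28), Aen (-0.28) and Tnfrsf10b (-0.26) lower, the last not without LIGHT 2. Of 24 genes of the ATF4 and unfolded protein response 10 were higher (41.7%) and 4 lower (16.7%; 5 higher with all 12 libraries). The amino acid transporter Slc7a5 was higher by 0.60 and Trib3 by 0.41, while the lower genes were those of serine synthesis and use, Phgdh (-0.22), Psph (-0.28) and Shmt2 (-0.40), and the cystine transporter Slc7a11 (-0.40). Trib3 and Psph missed the threshold with all 12 libraries (edgeR adjusted p = 0.2 and 0.108), and Slc7a11 without control 1 (edgeR adjusted p = 0.0595). Of 22 antioxidant genes 6 were higher (27.3%) and 8 lower (36.4%): the glutathione transferase Gsta4 lay at 57.5 ± 0.653 against 28.2 ± 1.24 CPM (-1.03) and its relative Gstm2 at 62.4 ± 1.95 against 116 ± 4.04 CPM (0.90). The metallothionein gene Mt2 was higher by 1.03 and Gclc, of glutathione synthesis, lower by 0.68. In glycolysis and the hypoxia response 6 of 23 were higher and 6 lower (26.1% each; 2 and 1 with all 12 libraries), with the glucose transporter Slc2a1 (0.51) up and the hexokinase Hk2 (-0.93) down. Of 42 oxidative phosphorylation genes 8 were higher and 8 lower (3 and 1 with all 12 libraries; 4 higher without LIGHT 1 or without LIGHT 2, 5 without control 2 and 12 without LIGHT 3), shares of 19% that lie below those of all tested genes.

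Regulators of fat cell formation differed in both directions. Of 30 tested, 13 were higher (43.3%, against 23.2% of all tested genes) and 5 lower (16.7%, against 22.1%; median 0.12). Zfp423, a zinc finger factor of preadipocyte commitment, lay at 3.64, 2.66 and 3.34 CPM in the control libraries and 12.2, 14.1 and 15.9 CPM in the LIGHT libraries, a log2 fold change of 2.13 ± 0.15 (SE; edgeR adjusted p = 1.4e-08). Gata3, which holds preadipocytes back, lay at 4.35, 4.91 and 5.54 CPM in the control libraries and 11.8, 10.4 and 11.6 CPM in the LIGHT libraries (1.19 ± 0.13 (SE; edgeR adjusted p = 2.64e-06)). Dlk1, the preadipocyte factor Pref-1, was higher at 968 ± 34.6 against 1493 ± 45.5 CPM (0.62), as were Zfp521 (0.59), Cebpd (0.48) and Cebpa (0.77). Foxa1 had 3 counts over the control libraries, all in control 3, and 47 over the LIGHT libraries, a ratio of 14.9 (exact 95% counting interval 4.79 to 74.7). The genes called lower were Klf5, an early factor of differentiation, at 7.04, 8.2 and 7.98 CPM in the control libraries and 2.45, 3.04 and 3.2 CPM in the LIGHT libraries (-1.41 ± 0.16 (SE; edgeR adjusted p = 3.15e-06)), Ebf2 (-1.23), Pparg (-0.71), Foxo1 (-0.32) and Wnt5a (-0.27). Wnt5a missed the threshold without control 1 or LIGHT 2, and Foxo1 with all 12 libraries. Cebpb did not pass (0.11; edgeR adjusted p = 0.203).

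Genes of mature fat cells were near the background. Of 21 tested, 6 were higher (28.6%, against 23.2%) and 4 lower (19%, against 22.1%), with 3 and 2 without control 2. The lower count was 1 with all 12 libraries in the fit and 7 without the 2 libraries at odds with their labels. The lipase gene Lipe lay at 7.75, 9.88 and 9.71 CPM in the control libraries and 20.5, 17.6 and 15.4 CPM in the LIGHT libraries (0.97 ± 0.13 (SE; edgeR adjusted p = 1.6e-05)) and Angptl4, an inhibitor of lipoprotein lipase, at 24.3, 21.4 and 22.2 CPM in the control libraries and 11.4, 12.4 and 12.6 CPM in the LIGHT libraries (-0.90 ± 0.10 (SE; edgeR adjusted p = 2.12e-06)). Fabp4, the fatty acid binding protein of adipocytes, lay at 27.2, 31.2 and 26.5 CPM in the control libraries and 20.6, 24.6 and 9.03 CPM in the LIGHT libraries, a log2 fold change of -0.65 ± 0.22 (SE; edgeR adjusted p = 0.0221), with LIGHT 3 far below the other libraries. Its call was lost without control 2 (edgeR adjusted p = 0.088), in DESeq2 (adjusted p = 0.21) and with all 12 libraries (0.153), and without LIGHT 3 the log2 fold change was -0.33. Adipoq, which encodes adiponectin, was at 2.58 ± 0.516 against 1.9 ± 1.01 CPM and did not pass (edgeR adjusted p = 0.31). Of 24 thermogenic genes 7 could be tested, and Ucp1 and Prdm16 were not listed in any of the 6 libraries. The 1 that passed, Kcnk3 (0.74), did not with all 12 libraries.

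Of 21 tested collagen genes 11 were higher in LIGHT (52.4%, against 23.2% of all tested genes) and 5 lower (23.8%, near the 22.1% of all tested genes), with a median of 0.41. Col11a1 differed most, at 5.13, 5.37 and 5.06 CPM in the control libraries and 31.5, 33.2 and 35.9 CPM in the LIGHT libraries, a log2 fold change of 2.69 ± 0.11 (SE; edgeR adjusted p = 9.3e-12). The abundant chains Col1a2 (4793 ± 447 against 8727 ± 482 CPM; 0.86 ± 0.07 (SE; edgeR adjusted p = 4.75e-08)), Col3a1 (1.11) and Col1a1 (0.70) and the type VI chains Col6a2 (1.18) and Col6a1 (0.97) were higher, while Col6a3 did not pass. The fibrillar chain Col5a2 did not pass either (-0.16; edgeR adjusted p = 0.0658), and was lower without control 3 or LIGHT 3 (edgeR adjusted p = 0.0316 and 0.021) and in DESeq2. The 5 lower were Col8a1 (-0.95), Col7a1 (-0.84), Col18a1 (-0.78), Col4a2 (-0.40) and Col4a1 (-0.33). Another type IV chain, Col4a5, was higher by 0.87. Control 1 was the highest control library for Col1a1, Col4a1, Fn1 and Nid1, and Col18a1 missed the threshold with all 12 libraries (edgeR adjusted p = 0.0751).

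Among other matrix genes 13 of 34 were higher (38.2%, against 23.2% of all tested genes) and 14 lower (41.2%, against 22.1%; 9 lower with all 12 libraries). The small leucine-rich proteoglycans Dcn, at 28.3, 23.6 and 21 CPM in the control libraries and 91.6, 106 and 88.4 CPM in the LIGHT libraries (1.97 ± 0.09 (SE; edgeR adjusted p = 7.73e-11)), and Ogn, at 28.6, 28.4 and 28.8 CPM in the control libraries and 94, 113 and 94.2 CPM in the LIGHT libraries (1.81 ± 0.08 (SE; edgeR adjusted p = 2.11e-11)), were higher without overlap. Glycoproteins of the matrix went both ways: Fn1 (fibronectin), at 3207 ± 534 against 2426 ± 167 CPM (-0.40), Tnc (-0.97) and Nid1 (-0.72) were lower, and Postn (0.59) and Spon2 (1.46) higher. Of 23 proteases and inhibitors 9 were higher (39.1%) and 11 lower (47.8%; 1 and 7 with all 12 libraries). Adamts1 lay at 361, 326 and 289 CPM in the control libraries and 908, 916 and 1022 CPM in the LIGHT libraries (1.54 ± 0.07 (SE; edgeR adjusted p = 8.23e-11)) and Mmp9, a gelatinase, at 12.3, 9.82 and 9.12 CPM in the control libraries and 46.6, 53.7 and 46.9 CPM in the LIGHT libraries (2.24 ± 0.10 (SE; edgeR adjusted p = 6.06e-11)), although Mmp9 missed the threshold with all 12 libraries (edgeR adjusted p = 0.16). Timp3, an inhibitor of metalloproteinases bound to the matrix, lay at 43.5, 40.5 and 39.4 CPM in the control libraries and 7.85, 7.59 and 8.47 CPM in the LIGHT libraries (-2.37 ± 0.09 (SE; edgeR adjusted p = 9.3e-12)). The collagenase gene Mmp13 was lower by 2.05. No LIGHT library reached a control library in either of these last genes. Mmp3, counted among the NF-κB targets too, had the largest fall of the protease list (-2.62).

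Contractile genes and genes of the YAP and SRF pathways were mostly lower in LIGHT, with Cyr61 as a clear exception. YAP works with TEAD factors and SRF with actin-sensing cofactors, and both rise with tension in the cytoskeleton. Of 26 tested, 17 were lower (65.4%, against 22.1% of all tested genes) and 2 higher, with a median of -0.24 (9 lower and 1 higher with all 12 libraries). Ctgf, a matricellular target of YAP, lay at 34.4, 32.6 and 31.3 CPM in the control libraries and 8.22, 8.03 and 7.23 CPM in the LIGHT libraries, a log2 fold change of -2.07 ± 0.10 (SE; edgeR adjusted p = 9.29e-11). Its relative Cyr61 lay at 166, 151 and 153 CPM in the control libraries and 283, 299 and 289 CPM in the LIGHT libraries, a log2 fold change of 0.89 ± 0.05 (SE; edgeR adjusted p = 1.66e-09). The groups were separate in opposite directions for these 2 genes. Tagln, an actin-binding protein of smooth muscle, lay at 206, 203 and 217 CPM in the control libraries and 108, 103 and 108 CPM in the LIGHT libraries (-0.97 ± 0.05 (SE; edgeR adjusted p = 3.75e-10)), and Actg2 (-0.85), Tpm2 (-0.81), Vcl (-0.53) and Acta2 (-0.32) were lower as well, Acta2 not with all 12 libraries (edgeR adjusted p = 0.436). Ankrd1, the other member called higher (0.33), missed the threshold without control 1, control 2 or LIGHT 1 (edgeR adjusted p 0.0603 to 0.0686).

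The TEAD letters GGAATG, searched on both strands, were in the 250 bases upstream of 12 of the 21 members with a window (57.1%, against 10.3% of tested genes). Of these 12, 2 were higher and 8 lower, and of the 9 without a match 0 were higher and 4 lower. The 200 bases before the start follow for Cyr61, which was higher, and for Amotl2 (-0.29) and Ajuba (-0.41), which were lower, to show that members of either direction hold the match (RefSeq, GRCm38.p6, matches in capitals).
Cyr61 (GRCm38.p6, chr3:145649986-145650185, minus strand): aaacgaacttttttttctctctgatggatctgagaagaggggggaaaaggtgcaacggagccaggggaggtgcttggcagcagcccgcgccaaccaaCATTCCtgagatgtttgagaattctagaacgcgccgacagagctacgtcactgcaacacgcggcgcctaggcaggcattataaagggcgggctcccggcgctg
Amotl2 (GRCm38.p6, chr9:102717604-102717803, plus strand): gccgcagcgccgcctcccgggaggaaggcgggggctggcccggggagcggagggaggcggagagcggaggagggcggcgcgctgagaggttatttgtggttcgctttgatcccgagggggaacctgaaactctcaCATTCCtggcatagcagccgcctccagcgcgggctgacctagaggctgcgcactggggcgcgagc
Ajuba (GRCm38.p6, chr14:54577662-54577861, minus strand): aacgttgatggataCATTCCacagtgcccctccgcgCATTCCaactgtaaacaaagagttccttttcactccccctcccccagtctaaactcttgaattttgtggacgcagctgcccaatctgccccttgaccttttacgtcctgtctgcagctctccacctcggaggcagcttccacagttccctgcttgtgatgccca

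**Figure D4:**
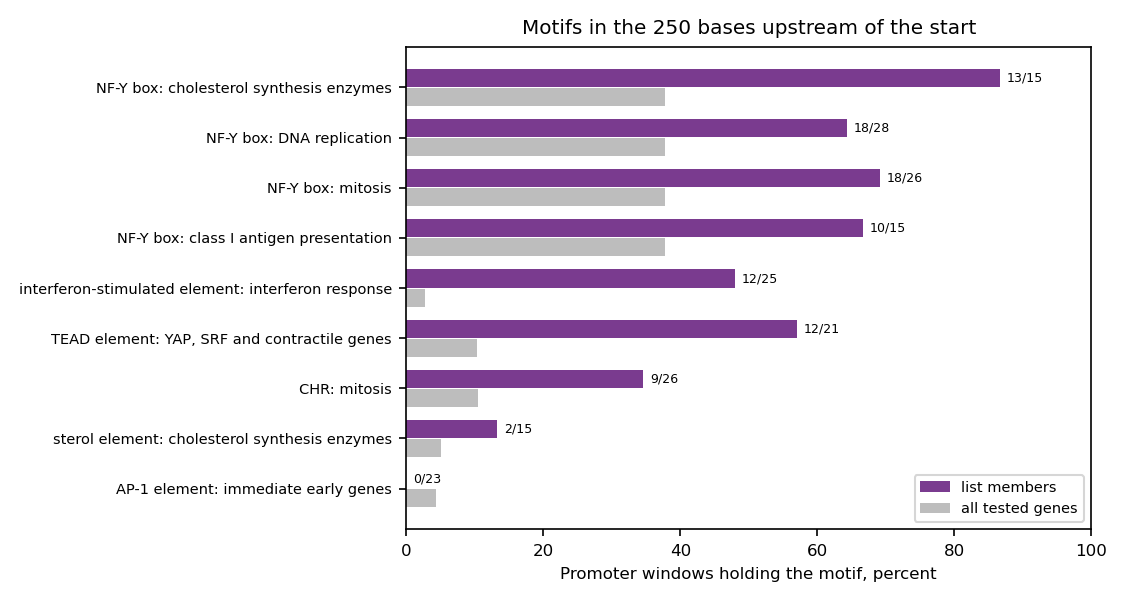
Share of genes (percent, x axis) whose 250 bases upstream of the start held a motif, for members of a gene list (purple, with the number of genes beside the bar) and for all tested genes with a window (grey). The list share is 86.7% against 37.7% for the NF-Y box in cholesterol synthesis, 48% against 2.73% for the interferon-stimulated element and 57.1% against 10.3% for the TEAD element.

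The NF-Y letters were common in some other lists too, whichever way these differed. They were in 64.3% of replication genes and 69.2% of mitosis genes, which were lower, and in 66.7% of class I presentation genes. In interferon response genes (28%) and immediate early genes (30.4%) their share was below the 37.7% of tested genes. The letters TTTGAA of the cell cycle homology region (CHR), which mitotic promoters carry, were in 9 of 26 mitosis genes (34.6%, against 10.4% of tested genes). None of 23 immediate early genes with a window held TGANTCA, the AP-1 letters (4.26% of tested genes), which says only that those letters are not in these windows.

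Of 25 tested genes of the TGF-β and BMP pathways 12 were lower (48%, against 22.1% of all tested genes) and 5 higher (20%, against 23.2%; 3 with all 12 libraries), with a median of -0.18. Of the ligands Inhbb, an activin chain, lay at 29.6, 29.1 and 28.6 CPM in the control libraries and 10.7, 11.1 and 13.5 CPM in the LIGHT libraries (-1.31 ± 0.10 (SE; edgeR adjusted p = 4.03e-08)), and Tgfb1 did not pass (-0.04; edgeR adjusted p = 0.664). Ltbp1 (-1.26 ± 0.08 (SE; edgeR adjusted p = 5.41e-09)) and Ltbp2 (-0.93), which hold latent TGF-β in the matrix, were lower. Of the target genes Id1 lay at 186, 197 and 195 CPM in the control libraries and 99.7, 96.7 and 105 CPM in the LIGHT libraries (-0.94 ± 0.05 (SE; edgeR adjusted p = 7.91e-10)) and Smad7, the inhibitory SMAD, was lower by 0.70. The 5 higher were Tgfbi (0.84), the receptors Tgfbr1 (0.41) and Tgfbr2 (0.19), Smad3 (0.29) and Fst (0.26), of which Tgfbr2 missed the threshold without control 2 or LIGHT 2 and Fst without LIGHT 3.

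Of 28 growth factors and receptors 15 were higher (53.6%, against 23.2% of all tested genes) and 9 lower (32.1%, against 22.1%; 6 and 2 with all 12 libraries; 5 lower without control 3). Ptn, the heparin-binding factor pleiotrophin, lay at 603, 598 and 553 CPM in the control libraries and 1194, 1287 and 1238 CPM in the LIGHT libraries (1.08 ± 0.06 (SE; edgeR adjusted p = 2.5e-10)). The lymphatic growth factors Vegfc, at 19, 19.1 and 18.2 CPM in the control libraries and 38.4, 38.6 and 38.7 CPM in the LIGHT libraries (1.04 ± 0.08 (SE; edgeR adjusted p = 1.76e-08)), and Figf, which is Vegfd (0.90), were higher, as were the receptors Egfr (1.07) and Pdgfra (0.81). Fgf7, a stromal factor for epithelia, was lower at 151, 165 and 148 CPM in the control libraries and 85.2, 84.3 and 88.3 CPM in the LIGHT libraries (-0.85 ± 0.06 (SE; edgeR adjusted p = 5.42e-09)). Ptn, Vegfc and Pdgfra missed the threshold with all 12 libraries (edgeR adjusted p 0.064 to 0.154).

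The genes with the largest differences lay mostly outside these pathways. Taking called genes whose groups were apart and whose higher group averaged 5 CPM or more, Frmpd4, a scaffold protein known from synapses, differed most, at 0.0596, 0.116 and 0.179 CPM in the control libraries and 26.1, 26.9 and 27.6 CPM in the LIGHT libraries, an edgeR log2 fold change of 7.75 ± 0.21 (SE; edgeR adjusted p = 8.41e-14). Its control libraries had 1, 2 and 3 counts, at or under the floor, and the ratio of summed counts was 224 (exact 95% counting interval 103 to 611). Akr1c12, an aldo-keto reductase with close relatives whose reads may be shared, lay at 0.835, 0.866 and 0.894 CPM in the control libraries and 11.1, 12 and 11.7 CPM in the LIGHT libraries (3.74 ± 0.17 (SE; edgeR adjusted p = 6.06e-11)). Wnt4, a secreted Wnt ligand, lay at 4.06, 3.41 and 4.59 CPM in the control libraries and 27.7, 27.9 and 25.3 CPM in the LIGHT libraries (2.75 ± 0.12 (SE; edgeR adjusted p = 3.99e-11)). Lrrc17 (2.66), the glutamate receptor subunit Gria3 (2.72), Nsg1 (3.25) and Tmem180 (2.74) were the other large rises.

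On the lower side, Il1rl1, the receptor of interleukin 33, lay at 132, 128 and 114 CPM in the control libraries and 22.9, 19.5 and 21.8 CPM in the LIGHT libraries, a log2 fold change of -2.55 ± 0.08 (SE; edgeR adjusted p = 2.73e-13). Il18rap, a chain of the interleukin 18 receptor, lay at 25.9, 23.2 and 23.4 CPM in the control libraries and 4.6, 3.2 and 3.64 CPM in the LIGHT libraries (-2.67 ± 0.13 (SE; edgeR adjusted p = 1.33e-10)). Npnt, a ligand of integrins in basement membranes, was lower by 2.88, the integrin chain Itgb7 by 2.59, the peptide hormone gene Cck by 2.52, and Dusp3, Stac2 and U90926 by 2.98, 3.19 and 3.63 on the log2 scale. Lce1g, which has close relatives, was lower by 2.60. Lcn2 (-2.79) and Mmp3 (-2.62), given above, were also among the 12 largest falls. The 18S ribosomal gene Rn18s, a sign of how much ribosomal RNA was left in a library, lay at 2.68, 9.7 and 5.84 CPM in the control libraries and 0.797, 1.52 and 0 CPM in the LIGHT libraries (-2.96 ± 0.54 (SE; edgeR adjusted p = 0.000309)), and did not pass in DESeq2 (DESeq2 adjusted p = 0.0724). LIGHT 2 was the highest LIGHT library, and without it the log2 fold change was -3.97. The 28S gene Rn28s1 lay at 34.5, 26.5 and 22.6 CPM in the control libraries and 11.2, 12.3 and 14.3 CPM in the LIGHT libraries (-1.14 ± 0.14 (SE; edgeR adjusted p = 5.13e-06)). Both ribosomal genes were thus lower in LIGHT, and the part of ribosomal RNA in the other results was not tested.

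**Figure D5:**
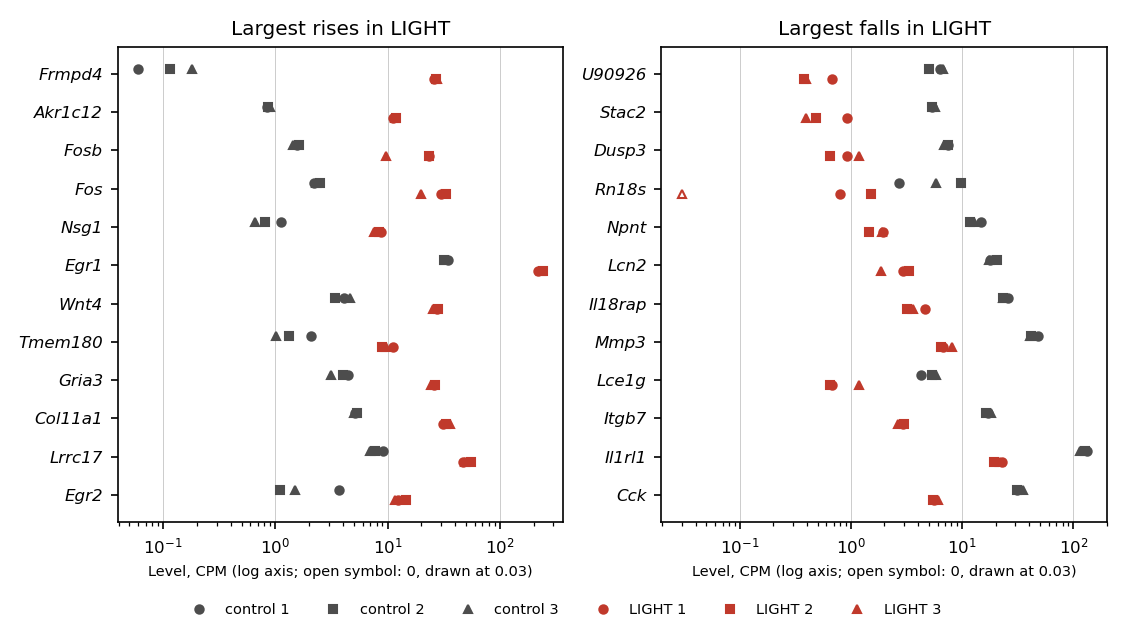
Levels in CPM (log axis) of the 12 largest rises (left) and 12 largest falls (right) by library, control in grey and LIGHT in red; an open symbol marks a library at 0. The groups are apart for every gene shown, as the choice of genes requires, and LIGHT 3 lies below LIGHT 1 and LIGHT 2 for Fos and Fosb.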

How the data were processed

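RNA from 3T3-L1 cells (TRIzol extraction, checked on a Bioanalyzer, sequenced on an Illumina HiSeq, per the labels' protocols) was measured in 12 libraries, of which 6 were used here, 3 undifferentiated control and 3 undifferentiated LIGHT. Per the file headers, the authors deposited for each library expected counts per gene (estimated read counts that need not be whole) and FPKM (per length and library size). Per the submitters' processing notes, mouse build mm8 was used. The aligner, the counter and the strand setting were not given in the sources used here. Reads of antisense or overlapping genes therefore cannot be told apart, and near-identical copies (Prl2c2 and Prl2c3, Akr1c12, Lce1g, H2 genes) are uncertain. A gene missing from a table was taken as 0, and unnamed gene models held 4.23% to 4.61% of the counts.

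Expected counts were rounded and tested with edgeR 4.0.16 (R 4.3.3, limma 3.58.1): filterByExpr with a minimum count of 10, TMM scaling, quasi-likelihood test, Benjamini-Hochberg adjusted p under 0.05. Each SE was obtained from the fitted log2 fold change and its F statistic (absolute change over root F). CPM are TMM-scaled counts, and FPKM were used only to order genes. Intervals cover counting error only, and the fold given for a group with 0 counts takes the counts of the other group as exact. Tables and plots used Python 3.11.15, pandas 2.3.3 and matplotlib 3.10.9. Promoter windows are those of RefSeq (GRCm38.p6), matched by gene ID for 9568 tested genes; for the 4163 genes of the table with more than 1 window the first was used. Tested on simulated data for this comparison (12378 genes), the fit recovered 70% of 100 genes changed by 0.5 on the log2 scale. It recovered 90.9% of 99 changed by 1, with 10 false among 170 calls in all. The simulation set only 200 genes to change, against 5601 called in the data, so these shares may not hold for the comparison itself.

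The named genes were the markers Tnfsf14, Fos and Mvd, key genes of 30 lists, up to 6 called members of each list with the smallest p, and the 12 largest rises and falls at 5 CPM or more without overlap. Other list members named in the text, and Prl2c2, Prl2c3, Rn28s1 and Cdkn2b, were chosen after their values were seen. The comparison and the lists were chosen with earlier results of these data known. Alternatives were RLE scaling, library totals, DESeq2 1.42.0, no filter, a minimum count of 50, all 12 libraries, a replicate block, and each library left out. Some list members are counted but not reported here by name.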

Additional observations from a re-analysis of the deposited data

How the results depend on the processing

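Against 5601 genes in the main comparison, 5603 passed with RLE scaling, 5640 with library totals, 5136 in DESeq2, 5778 with no low-count filter and 5368 at a minimum count of 50. Calls that were higher made up 51.2% in the main comparison, 50.2% with RLE scaling and 45.7% with library totals. A fit over all 12 libraries called 3446, of which 1604 were higher and 1842 lower; the cause was not tested. A fit over 10 libraries, chosen after seeing the data, called 5836 (2935 higher and 2901 lower). Leaving out a library gave 4700 to 5428 genes, 2411 to 2689 higher and 2289 to 2739 lower. The replicate block gave 5360 genes (2754 higher and 2606 lower). The replicate numbers did not pair the samples: deviations of same-numbered libraries correlated at -0.0134, 0.0083 and 0.0703, and only control 3 and LIGHT 3 correlated best with their own number. The 251 called genes that were followed came from the naming rule, with some added after their values were seen. At a minimum count of 50 some named genes were not tested. Of the 251, 182 passed in every alternative that tested them and 69 missed the threshold in at least 1, 61 of them with all 12 libraries. In the same set of named genes, 6 uncalled genes passed in at least 1. Of the calls that passed both in the main comparison and in an alternative, none changed sign. With 3 libraries a line and 1 line of each kind, precision is limited to differences between these lines, and genes of a few counts give wide intervals.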

Other observations

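The proliferins, placental hormones of the prolactin family that growing fibroblasts also secrete, were lower in LIGHT. Prl2c2 averaged 197 ± 4.48 CPM in control and 43.8 ± 2.27 CPM in LIGHT (SD, n = 3), a log2 fold change of -2.17 with an edgeR adjusted p of 7.94e-14. Prl2c3 averaged 140 CPM in control and 29.6 CPM in LIGHT. These copies are nearly identical, so how reads divide between them is uncertain.

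Several genes too low for the test differed in summed counts over the 3 libraries of a line. Nog, a BMP antagonist, had 25 counts in control and 2 in LIGHT, a ratio of 0.076 (exact 95% counting interval 0.00872 to 0.305). Slc2a4, the insulin-responsive glucose transporter, had 10 and 1 (ratio 0.095, interval 0.00219 to 0.668). Esrrg, an orphan nuclear receptor, had 19 and 2 (ratio 0.1, interval 0.0113 to 0.414). On the higher side, Fstl3, a follistatin relative, had 2 and 18 (ratio 8.55, interval 2.05 to 76), and Car9, a carbonic anhydrase of the hypoxia response, had 1 and 10 (ratio 9.5, interval 1.35 to 412). Mdk, the growth factor midkine, had 9 counts in control and 0 in LIGHT. With 3 counts for the whole LIGHT group as the floor, it would be 3.16-fold lower. That value takes the 9 control counts as exact and is not a limit of a counting interval. The intervals cover counting error and not the spread between libraries.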
